A study of Homo sapiens with 6 samples.

Results

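The SLC25 family was followed in RNA sequencing of HuCCT1, an established human cell line from a cholangiocarcinoma, a cancer of the bile duct. Members were the genes whose symbol is SLC25A and a number, annotated as protein-coding: 48 of the 58735 genes in the count table, of which 19951 are protein-coding. The groups were siC1QBP, 3 libraries from cells given a small interfering RNA (siRNA) against C1QBP, and siNC, 3 libraries labelled as the control siRNA. All 6 libraries are total RNA of HuCCT1, labelled bile duct, and no other allele or agent is named. The labels do not give the siRNA sequences, the dose or the time of harvest, nor do they say whether replicates are separate cultures; p-values therefore cover the spread between these libraries, possibly only technical. The study is of 1 line with 1 label for the siRNA against C1QBP, and its title concerns a feedback loop of C1QBP with PAICS, FAK and c-Myc in proliferation.

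SLC25 proteins are the main carriers of the mitochondrial inner membrane. Most exchange one solute of the matrix for one of the cytosol: ADP for ATP, malate for oxoglutarate or citrate, aspartate for glutamate, and phosphate, iron, glutathione and cofactors by related proteins. They are made in the cytosol, pass the outer membrane through the TOM pore and are inserted by the TIM22 complex with its small TIM chaperones. C1QBP itself is a protein mainly of the mitochondrial matrix. In cholangiocytes and other epithelial cells these carriers link the respiratory chain to cytosolic biosynthesis.

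The siRNA target was low in the libraries labelled for it. C1QBP (ENSG00000108561, chromosome 17, 5432777 to 5448830, minus strand, hg38) stood at 59.1, 57.6 and 60.01 CPM (counts scaled to a common library total) in siC1QBP, against 174.9, 181.4 and 184.6 CPM in siNC. The log2 fold change, siC1QBP over siNC, was -1.61 (standard error, SE, 0.05; adjusted p = 1.39e-12, edgeR), which leaves 32.7% of the siNC level. Total counts were 17122252 to 18847340 per siC1QBP library and 18313264 to 20416243 per siNC library, so 3 counts, the limit set by a count of 0, correspond to 0.147 to 0.175 CPM. This limit covers counting error only. The first siC1QBP library stood apart from the other 2 of its group: its counts differed from theirs by 6.66 and 6.77 times the chi-square of pure sampling, against 2.09 times between those 2. Pairs of siNC libraries gave 2.13 to 3.67 times and pairs across groups 7.12 to 18.1 times. Mitochondrially encoded genes took 4.20% to 4.80% of siC1QBP counts and 3.66% to 3.88% of siNC counts, and 25001 to 25506 genes had a count in siC1QBP libraries against 23395 to 23841 in siNC libraries. The 7 cholangiocyte markers summed to 7499 to 7845 CPM in siC1QBP and 8320 to 8824 CPM in siNC. KRT7 and KRT19 were called lower and 0 of the 7 higher, while 7.84% of all tested genes were called lower. Of the 7, 5 had a negative log2 fold change and 2 a positive one, SOX9 (0.14) and KRT18 (0.09). Hepatocyte markers summed to 463 to 534 CPM in siC1QBP and 431 to 440 CPM in siNC, nearly all of it SERPINA1, which was called higher, with APOA2 and TTR at 0. The 5 fibroblast markers summed to at most 12.6 CPM, the 3 endothelial ones to at most 3.95 CPM and the 4 leukocyte ones to at most 0.445 CPM in any library, with CD3E at 0. The part of these shifts in the carrier results was not tested.

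Of the 48 carriers, 40 passed the low-count filter of edgeR (10 counts in a library of median size, 0.542 CPM, in at least 3 libraries) and were tested with 15530 genes in all. Apart from the sparse SLC25A32, at -1.27, their log2 fold changes lay between -0.33 and 0.69. With an adjusted p under 0.05, 6 fell and 2 rose, while 32 were not called. Those that fell were the carriers of oxoglutarate (SLC25A11), dicarboxylates (SLC25A10) and citrate (SLC25A1), a glutathione carrier (SLC25A39), a pyrimidine nucleotide carrier (SLC25A36) and the folate and FAD carrier SLC25A32. Those that rose were the branched-chain amino acid carrier SLC25A44 and SLC25A45. The 8 calls make up 20% of the tested carriers, against 14.3% called over all tested genes, where 7.84% fell and 6.47% rose. That base includes noncoding and faint genes. In a test of protein-coding genes only, 7 of 40 carriers were called, beside 16.95% of all genes tested. Among genes averaging 10 CPM or more, 4 of 31 carriers were called, beside 20.77% of all. An excess of calls among the carriers is therefore not shown. SLC25A32 passed the filter only through the siNC libraries; leaving it out, 7 of 39 were called, 5 lower and 2 higher.

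Promoters are shown for 5 of the 8 called carriers: SLC25A11, SLC25A1, SLC25A39, SLC25A36 and SLC25A44. Those of the called SLC25A10, SLC25A32 and SLC25A45 are not shown. The letters let the reader compare the starts of genes called in the same cells. Each window runs from 250 bases before to 50 bases after a gene's start in RefSeq (GRCh38.p14), written 5′ to 3′ on the gene's strand. They lie at chr17:4939997-4940296 for SLC25A11 (minus strand), chr22:19178687-19178986 for SLC25A1 (minus), chr17:44324774-44325073 for SLC25A39 (minus), chr3:140941586-140941885 for SLC25A36 (plus) and chr1:156193854-156194153 for SLC25A44 (plus). Capitals mark, on either strand, the GC box GGGCGG, the CCAAT box CCAAT and the E-box CACGTG.
SLC25A11: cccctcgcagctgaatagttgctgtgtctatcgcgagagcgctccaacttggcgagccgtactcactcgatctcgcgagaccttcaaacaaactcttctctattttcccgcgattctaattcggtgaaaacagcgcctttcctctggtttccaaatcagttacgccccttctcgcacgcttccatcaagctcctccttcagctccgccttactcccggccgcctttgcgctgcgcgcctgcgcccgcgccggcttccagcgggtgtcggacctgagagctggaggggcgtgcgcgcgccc
SLC25A1: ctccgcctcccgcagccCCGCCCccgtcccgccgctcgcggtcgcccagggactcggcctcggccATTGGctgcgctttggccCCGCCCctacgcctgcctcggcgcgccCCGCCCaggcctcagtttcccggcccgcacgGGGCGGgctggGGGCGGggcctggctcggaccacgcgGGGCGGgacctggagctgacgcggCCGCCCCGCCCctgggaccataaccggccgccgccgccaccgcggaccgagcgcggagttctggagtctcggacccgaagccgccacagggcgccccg
SLC25A39: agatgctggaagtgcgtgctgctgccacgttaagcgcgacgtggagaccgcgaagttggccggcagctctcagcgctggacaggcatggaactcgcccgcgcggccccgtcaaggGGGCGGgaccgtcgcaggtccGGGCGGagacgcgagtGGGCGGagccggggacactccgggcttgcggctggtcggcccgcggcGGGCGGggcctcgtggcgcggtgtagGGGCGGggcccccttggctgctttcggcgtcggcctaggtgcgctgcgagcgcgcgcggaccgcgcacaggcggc
SLC25A36: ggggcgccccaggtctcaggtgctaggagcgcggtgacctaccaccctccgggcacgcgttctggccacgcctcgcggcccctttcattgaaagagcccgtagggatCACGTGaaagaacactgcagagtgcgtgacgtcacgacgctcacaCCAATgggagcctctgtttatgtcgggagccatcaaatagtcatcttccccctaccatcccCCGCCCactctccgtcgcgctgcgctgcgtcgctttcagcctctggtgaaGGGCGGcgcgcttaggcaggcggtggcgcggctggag
SLC25A44: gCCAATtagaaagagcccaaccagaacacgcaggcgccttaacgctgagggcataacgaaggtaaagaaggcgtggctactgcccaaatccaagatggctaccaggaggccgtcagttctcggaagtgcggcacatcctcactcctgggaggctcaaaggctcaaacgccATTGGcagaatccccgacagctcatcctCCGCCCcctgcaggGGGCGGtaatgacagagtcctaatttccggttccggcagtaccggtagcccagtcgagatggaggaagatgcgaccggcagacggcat

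RefSeq windows were matched for 40 of the 48 carriers, 50 windows in all since some genes have several starts; a window of a gene that RefSeq lists on a pair of chromosomes with the same letters was counted once. A GC box was found in 33 of the 50 carrier windows (66%) and in 44.9% of all 35093 windows. A CCAAT box was found in 22 (44%), against 34.6% of all windows, and an E-box in 9 (18%), against 7.26%. The ETS core CCGGAAG was found in 11 (22%), against 10.3%. The NRF1 core GCATGCGC and the amino acid response element TGATGCAA were in none of the 50 carrier windows, and in 3.05% and 0.866% of all windows. Both strands were searched for every motif, and a match is a run of letters only. Among the windows shown, that of SLC25A1 has 8 GC boxes, 2 of them overlapping, and 1 CCAAT box at 80.3% G and C. The SLC25A39 window has 5 GC boxes at 75.3%, and the SLC25A36 window has 2 GC boxes, 1 CCAAT box and 1 E-box at 64.7%. The SLC25A44 window, of a gene that rose, has 2 GC boxes and 2 CCAAT boxes at 58.3%. The SLC25A11 window has none of the 6 motifs, at 60.7% G and C.

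Levels of the carriers spread widely. Carriers are ranked here in CPM per kilobase of the gene's listed exon length, except where another scale is named. On this scale the ADP/ATP carrier SLC25A5 was highest, at 310.6 ± 1.401 in siC1QBP and 309.2 ± 6.83 in siNC (SD, n = 3 each). Its near relative SLC25A6 followed at 215.8 ± 5.86 in siC1QBP and 217.3 ± 12.02 in siNC. SLC25A39 came next, at 77.8 ± 2.81 in siC1QBP and 93.6 ± 6.81 in siNC. The phosphate carrier SLC25A3 stood at 58.2 ± 1.03 in siC1QBP and 60.1 ± 1.16 in siNC, and the citrate carrier SLC25A1 at 48.4 ± 1.41 in siC1QBP and 53.9 ± 2.41 in siNC. These 5 were separated from each other by more than their SDs, but the place of SLC25A3 rests on the length used. Its exons add up to 8896 bases, and per kilobase of the longest principal transcript, a scale chosen after seeing the data, it was second in the family at 313 over all libraries, behind SLC25A5 at 365 and ahead of SLC25A6 at 227. Below the first 8 the order is loose: the carriers placed 9 to 14 (SLC25A46, SLC25A23, SLC25A22, SLC25A28, SLC25A38 and SLC25A29) lay between 12.01 and 13.4 in siC1QBP and between 12.8 and 13.8 in siNC, about as close as their SDs.

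**Figure D1:**
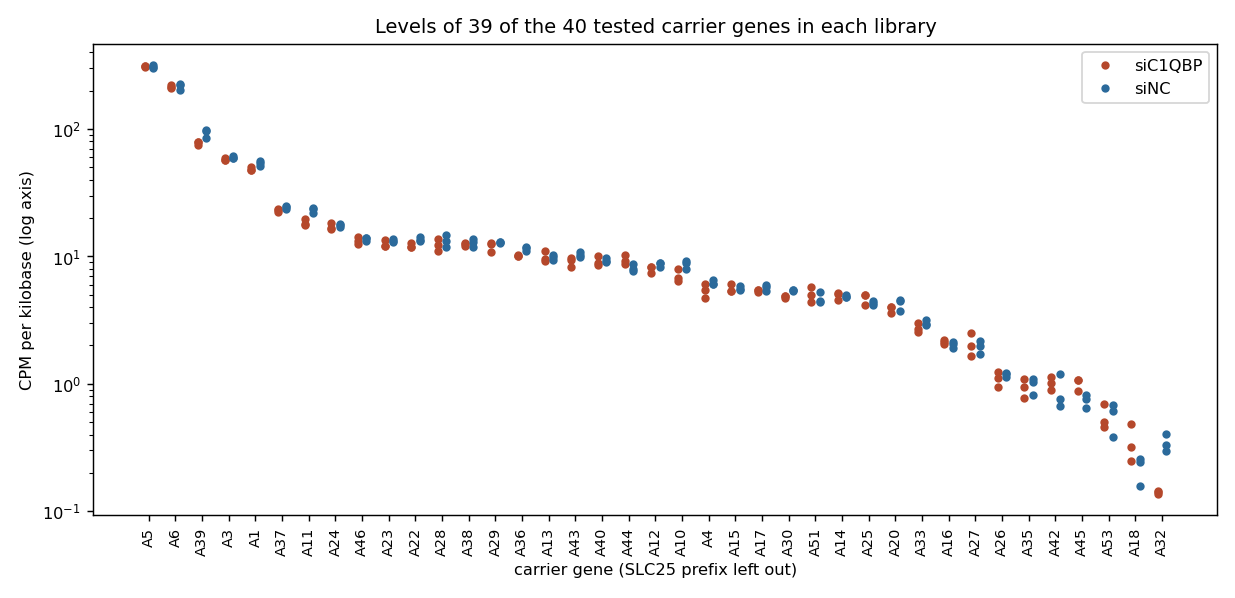
Level of 39 of the 40 tested carriers in CPM per kilobase of listed exon length (log axis), with a point for each of the 3 siC1QBP and 3 siNC libraries. SLC25A5 lies near 310 and SLC25A6 near 216 in both groups, and SLC25A39 is the third, with its siC1QBP points below its siNC points.

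SLC25A3, SLC25A5 and SLC25A6 together held 45.9%, 46.8% and 46.2% of the summed carrier CPM in the siC1QBP libraries and 44.3%, 44.7% and 45.0% in the siNC libraries. This summed CPM over all carriers was 3118, 3146 and 3130 in siC1QBP and 3207, 3327 and 3321 in siNC. It is not corrected for gene length, unlike the levels per kilobase above. Each siC1QBP library thus lay below each siNC library in the sum and above each in the share of these 3 carriers. In bulk RNA, fewer cells that use a gene and less RNA of it per cell cannot be told apart.

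Carriers of dicarboxylates and citrate move intermediates of the citric acid cycle across the inner membrane. All 3 tested members fell, with a class median of -0.29 on the log2 scale. Over all tested genes 7.84% fell, and 11.4% and 11.6% in the 2 shortest of 5 classes of exon length, which hold these 3 genes. Their summed CPM was 164, 175 and 168 in siC1QBP and 187, 206 and 200 in siNC.

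SLC25A11 exchanges oxoglutarate for malate in the malate-aspartate shuttle. The gene (ENSG00000108528, chromosome 17, 4937130 to 4940251, minus strand, hg38) had 47.8, 52.7 and 47.1 CPM in siC1QBP, against 58.2, 64.2 and 62.8 CPM in siNC. Every siC1QBP library lay below every siNC library. The log2 fold change was -0.33 (SE 0.06, 95% interval -0.46 to -0.19, adjusted p = 0.00231), or 79.7% of the siNC level. The call held in all 18 alternatives, with an adjusted p of 1.19e-05 to 0.0241. RNF167, on the other strand, shares 244 bases with it and averaged 1847 counts per library, and the strand setting of the counting is not given in the sources used here.

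SLC25A10 exchanges malate or succinate for phosphate. The gene (ENSG00000183048, chromosome 17, 81712236 to 81721016, plus strand) had 16.9, 17.8 and 21.1 CPM in siC1QBP, against 21.0, 24.2 and 23.1 CPM in siNC. The third siC1QBP library and the first siNC library were at nearly the same level, so the groups overlap. Its log2 fold change was -0.29 (SE 0.09, 95% interval -0.49 to -0.09, adjusted p = 0.0473). The call held in 7 of 18 alternatives: it was lost without the first (adjusted p = 0.112) or second (0.138) siC1QBP library, without the second (0.186) or the third (0.137) siNC library, under DESeq2 (0.0616), and once each library's trend with gene length was removed (0.0850). The annotation also has a longer same-strand gene across it, AC139530.2, which has 0 counts in every library.

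SLC25A1 exports citrate, the source of cytosolic acetyl-CoA. The gene (ENSG00000100075, chromosome 22, 19175575 to 19178830, minus strand) had 99.4, 104.8 and 99.96 CPM in siC1QBP, against 107.5, 117.5 and 114.0 CPM in siNC. The groups do not overlap, but the nearest libraries are 104.8 and 107.5 CPM. Its log2 fold change was -0.16 (SE 0.05, 95% interval -0.26 to -0.05, adjusted p = 0.0457). The call held in 8 of 18 alternatives and was lost without the second (adjusted p = 0.0528) or the third (0.129) siC1QBP library and without the second (0.201) or the third (0.151) siNC library. With the trend with gene length removed, the log2 fold change was -0.08 (adjusted p = 0.251), and under DESeq2 the adjusted p was 0.0555. The fourth member, the oxodicarboxylate carrier SLC25A21, had at most 3 counts in a library and was not tested.

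**Figure D2:**
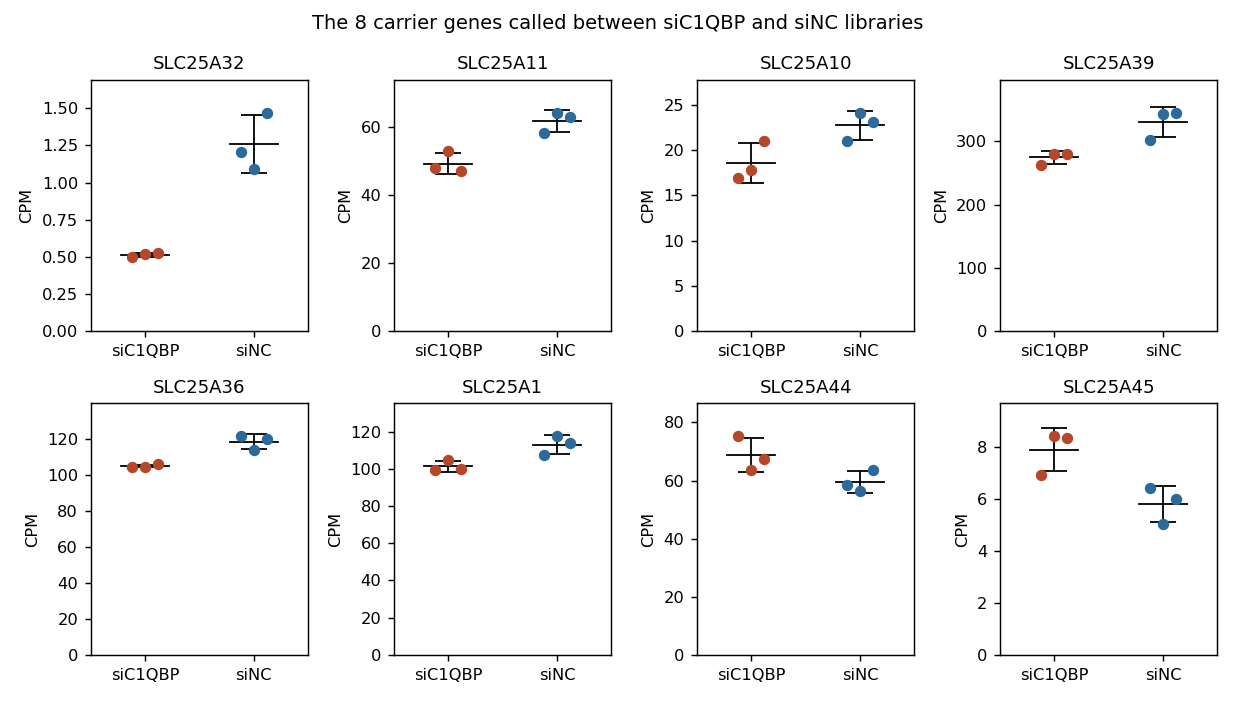
CPM of the 8 called carriers in each library, siC1QBP left of siNC in every panel, with the group mean as a line and the SD as a bar (n = 3 each). Only SLC25A10 has overlapping groups, where its highest siC1QBP value (21.1 CPM) meets its lowest siNC value (21.0 CPM).

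Carriers of cofactors, nucleotides, glutathione and carnitine had 3 of 12 tested members lower and 0 higher, with a median log2 fold change of -0.10. Leaving out SLC25A32, which passed the filter only through siNC, 2 of 11 were lower, against 7.84% of all tested genes. SLC25A39, which takes glutathione into the matrix, is the most abundant of them. The gene (ENSG00000013306, chromosome 17, 44319625 to 44324870, minus strand) had 263.0, 280.0 and 280.4 CPM in siC1QBP, against 302.4, 342.5 and 345.5 CPM in siNC. All siC1QBP values lay below all siNC values. The log2 fold change was -0.27 (SE 0.05, 95% interval -0.38 to -0.16, adjusted p = 0.00247), or 83.1% of the siNC level, and the call held in all 18 alternatives with an adjusted p of 1.45e-07 to 0.0293. SLC25A40, its paralog and a glutathione carrier too, averaged 46.7 ± 4.12 CPM in siC1QBP and 47.2 ± 1.72 CPM in siNC (log2 fold change -0.02, SE 0.07, adjusted p = 0.912). Whether the paralogs differ in response was not tested.

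SLC25A36 carries pyrimidine nucleotides, which mitochondria need for their own DNA and RNA. The gene (ENSG00000114120, chromosome 3, 140941830 to 140980961, plus strand) had 104.5, 104.3 and 105.8 CPM in siC1QBP, against 121.4, 113.9 and 120.1 CPM in siNC. The groups do not overlap. The log2 fold change was -0.18 (SE 0.05, 95% interval -0.28 to -0.08, adjusted p = 0.0197), or 88.6% of the siNC level. The call held in 14 of 18 alternatives and was lost without the second siC1QBP library (adjusted p = 0.0575) and without the first (0.0527) or the third (0.0963) siNC library. SLC25A33, the other pyrimidine nucleotide carrier, had a log2 fold change of -0.13 (SE 0.11, adjusted p = 0.479).

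SLC25A32 (ENSG00000164933), for folate and FAD, has few counts here. It had 9, 9 and 10 counts in siC1QBP, against 22, 22 and 27 counts in siNC, which is 0.500, 0.519 and 0.525 CPM against 1.21, 1.09 and 1.47 CPM. The log2 fold change was -1.27 (SE 0.36, 95% interval -2.03 to -0.52, adjusted p = 0.0238), the widest interval among the called carriers. The call was lost without any one of the 3 siC1QBP libraries (adjusted p 0.0516, 0.0703 and 0.0701 without the first, the second and the third), and without the second (0.0536) or the third (0.111) siNC library. DESeq2 gave it no adjusted p. A second annotated protein-coding gene on the same strand, AC012213.5, covers 16532 bases of it and has 0 counts. DCAF13, on the other strand, shares 476 bases and averages 1361 counts. How reads shared by overlapping genes were counted is not given in the sources used here. The part of such reads in the low counts of SLC25A32 was not tested.

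The other 9 tested carriers of this class had log2 fold changes between -0.13 and 0.21. They include the carnitine and acylcarnitine carrier SLC25A20 (-0.13, SE 0.13), the S-adenosylmethionine carrier SLC25A26 (-0.11, SE 0.14) and the peroxisomal carrier SLC25A17 (-0.08, SE 0.08). SLC25A16 (0.07, SE 0.09), the NAD carrier SLC25A51 (0.10, SE 0.11) and the coenzyme A carrier SLC25A42 (0.21, SE 0.21) were on the other side of 0. None of these was called. The summed CPM of the class was 527, 525 and 531 in siC1QBP and 578, 610 and 612 in siNC.

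Amino acid carriers had 1 of 8 tested members higher and 0 lower, with a median log2 fold change of -0.02. That 1 call is 12.5% of the class, near the 14.3% of all tested genes called in either direction, of which 6.47% were higher. SLC25A44 takes up branched-chain amino acids. The gene (ENSG00000160785, chromosome 1, 156193932 to 156212796, plus strand) had 75.3, 63.8 and 67.3 CPM in siC1QBP, against 58.3, 56.4 and 63.7 CPM in siNC. The groups touch without overlap, since the second siC1QBP and the third siNC library are almost equal. Its log2 fold change was 0.21 (SE 0.07, 95% interval 0.07 to 0.35, adjusted p = 0.0466). The highest value is that of the first siC1QBP library, which stands apart, and without it the log2 fold change was 0.14 (adjusted p = 0.131). The call was also lost without the third siC1QBP library (0.0741), without the first (0.122) or second (0.209) siNC library, and with the trend with gene length removed (0.0687).

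The glutamate carrier SLC25A22 had 59.6, 54.8 and 55.5 CPM in siC1QBP, against 61.4, 65.9 and 62.1 CPM in siNC. The groups do not overlap, but the log2 fold change of -0.16 (SE 0.06, 95% interval -0.28 to -0.03) was not called (adjusted p = 0.0805). Without the first siC1QBP library its adjusted p was 0.0212. SLC25A38, which brings glycine to mitochondria for haem synthesis, averaged 33.8 ± 0.919 CPM in siC1QBP and 34.5 ± 2.54 CPM in siNC (log2 fold change -0.03, SE 0.07, adjusted p = 0.808). The aspartate and glutamate carriers SLC25A12 (-0.12, SE 0.07) and SLC25A13 (0.03, SE 0.08), the basic amino acid carrier SLC25A29 (-0.10, SE 0.06) and the ornithine carrier SLC25A15 (-0.01, SE 0.11) were not called. The second glutamate carrier, SLC25A18, had 21, 40 and 29 counts in siC1QBP and 22, 15 and 21 counts in siNC, with a log2 fold change of 0.69 whose 95% interval, -0.02 to 1.40, was the widest among the carriers not called.

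**Figure D3:**
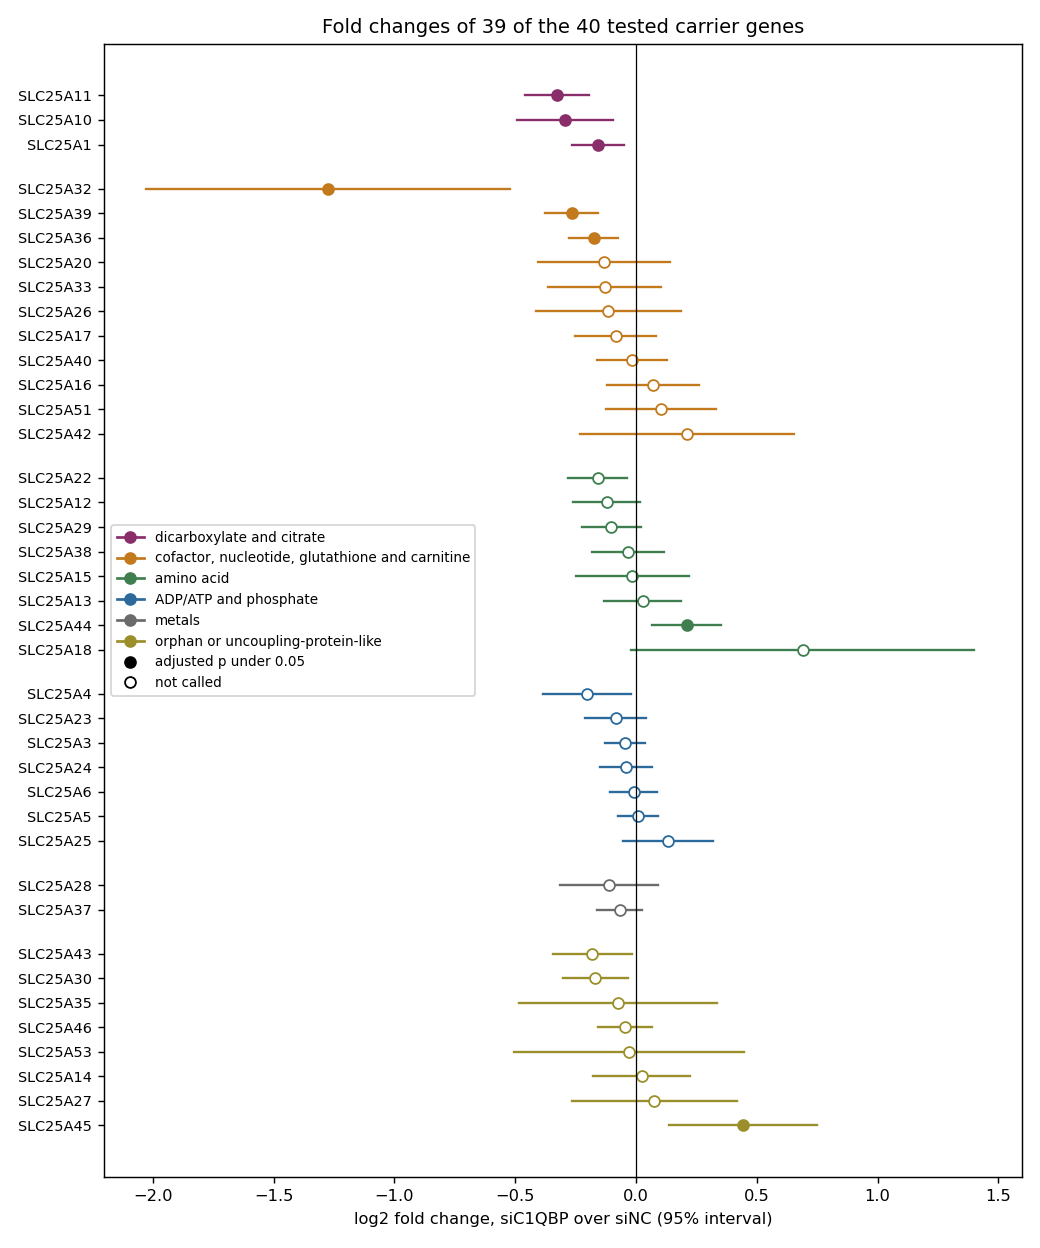
Log2 fold change, siC1QBP over siNC, of 39 of the 40 tested carriers by substrate class, with 95% intervals; called carriers are filled. All 3 tested dicarboxylate and citrate carriers lie below 0 (-0.33 to -0.16), while the ADP/ATP carriers SLC25A5 and SLC25A6 lie at 0.01 and -0.01.

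ADP/ATP and phosphate carriers feed the ATP synthase and hand its product to the cytosol. In edgeR 0 of the 7 tested members were called, 1 had an unadjusted p under 0.05, and DESeq2 and limma-voom called 0 as well. Over all tested genes edgeR called 14.3%, so 0 of 7 is near that share. SLC25A5 averaged 465.9 ± 2.10 CPM in siC1QBP and 463.7 ± 10.2 CPM in siNC, a log2 fold change of 0.01 with a 95% interval of -0.08 to 0.09. SLC25A6 averaged 467.1 ± 12.7 CPM in siC1QBP and 470.2 ± 26.0 CPM in siNC, -0.01 on the log2 scale (95% interval -0.11 to 0.09). Both intervals exclude a change as large as that of SLC25A39; the sign of both fold changes turns with the scaling or filter. The phosphate carrier SLC25A3 averaged 517.3 ± 9.13 CPM in siC1QBP and 534.2 ± 10.3 CPM in siNC (log2 fold change -0.05, 95% interval -0.13 to 0.04, adjusted p = 0.476).

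Within the ADP/ATP carriers the shares of SLC25A5 and SLC25A6 differed between groups by less than their SDs. Per kilobase, SLC25A5 made up 58.4 ± 0.751% of their sum in siC1QBP and 58.1 ± 0.940% in siNC, SLC25A6 40.6 ± 0.637% in siC1QBP and 40.8 ± 0.964% in siNC, and SLC25A4, the isoform of heart and muscle, 1.02 ± 0.118% in siC1QBP and 1.17 ± 0.0302% in siNC. SLC25A4 itself had 22.8, 29.5 and 26.4 CPM in siC1QBP, against 29.5, 31.4 and 29.7 CPM in siNC (log2 fold change -0.20, SE 0.09, adjusted p = 0.128); it was called lower without the second siC1QBP library only. The calcium-regulated ATP-Mg and phosphate carriers SLC25A24 (-0.04, SE 0.05), SLC25A23 (-0.08, SE 0.06) and SLC25A25 (0.13, SE 0.09) were not called. An antisense gene shares 665 bases with SLC25A25 and averaged 361.8 counts against 411 for SLC25A25 itself, so reads of the pair may be mixed.

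Both mitoferrins, the iron carriers SLC25A37 and SLC25A28, were tested. Of these 2, 0 were called by edgeR, DESeq2 or limma-voom, and 0 had an unadjusted p under 0.05 in edgeR. Over all tested genes edgeR called 14.3%, so 0 of 2 is near that share. SLC25A37 had 182.7, 189.6 and 191.4 CPM in siC1QBP, against 197.4, 201.2 and 192.2 CPM in siNC, without overlap. Its log2 fold change was -0.07 (95% interval -0.16 to 0.02, adjusted p = 0.326). SLC25A28 averaged 21.7 ± 2.22 CPM in siC1QBP and 23.4 ± 2.47 CPM in siNC, -0.11 on the log2 scale (95% interval -0.31 to 0.09, adjusted p = 0.486).

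Carriers of unknown or debated substrate and those like uncoupling proteins had 1 of 8 tested members higher and 0 lower, with a median log2 fold change of -0.04. Here too 1 call is 12.5% of the class, near the 14.3% called over all tested genes. SLC25A45 (ENSG00000162241, chromosome 11, 65375192 to 65383701, minus strand) is a faint gene, with 6.95, 8.42 and 8.35 CPM in siC1QBP, against 6.42, 5.06 and 5.99 CPM in siNC. The groups do not overlap. The log2 fold change was 0.44 (SE 0.14, 95% interval 0.14 to 0.75, adjusted p = 0.0492), or 136% of the siNC level. The call held in 7 of 17 alternatives. It was lost without the second (adjusted p = 0.141) or the third (0.140) siC1QBP library, without the second (0.194) or the third (0.106) siNC library, and under DESeq2 (0.0776), limma-voom (0.0525) and removal of the trend with gene length (0.0667).

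SLC25A46, an outer-membrane relative that takes part in mitochondrial shape, averaged 110.7 ± 6.90 CPM in siC1QBP and 114.2 ± 3.18 CPM in siNC (log2 fold change -0.04, SE 0.05, adjusted p = 0.637). SLC25A43 had 30.3, 29.1 and 25.9 CPM in siC1QBP, against 30.7, 34.0 and 31.9 CPM in siNC, which do not overlap (log2 fold change -0.18, SE 0.08, adjusted p = 0.131). SLC25A30, named here for a call under another setting, averaged 32.9 ± 0.711 CPM in siC1QBP and 36.9 ± 0.636 CPM in siNC (log2 fold change -0.17, SE 0.06, adjusted p = 0.0898). It was called lower once the trend with gene length was removed. SLC25A35 (-0.07), SLC25A53 (-0.03), SLC25A14 (0.02) and SLC25A27 (0.08) were not called.

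The 8 carriers that failed the filter were SLC25A2, SLC25A21, SLC25A31, SLC25A34, SLC25A41, SLC25A47, SLC25A48 and SLC25A52. SLC25A31, the ADP/ATP carrier of the testis, and SLC25A52 had 0 counts in every library, and the highest count among the 8 was 11, for SLC25A34. These 8 were not tested. All 1417 bases of SLC25A2 lie within TAF7 on the same strand, which averaged 1297 counts, and the counting of shared reads is not given. Annotated SLC25 pseudogenes took 48 counts in 40 rows over all libraries, against 356705 counts in the carrier rows.

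As a family the tested carriers leaned to lower values. A total of 29 had a negative and 11 a positive log2 fold change, so 72.5% were negative, against 49.4% of all tested genes. The median was -0.07, against 0.003 for all tested genes, and stayed between -0.10 and -0.04 in all 18 alternatives. In 10 carriers every siC1QBP library lay below every siNC library (16.6% of all tested genes did so), and in 2 every siC1QBP library lay above (16% of all tested genes). These counts include SLC25A32, which passed the filter only through siNC. Leaving it out, 28 of 39 were negative and 11 positive, with a median of -0.06. Of these 39, 9 lay wholly below and 2 wholly above. The called carriers, SLC25A32 among them, had a median absolute log2 fold change of 0.28, against 0.29 for all called genes.

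Gene length moved with the calls over all genes. The tested genes were put in 5 classes of equal size by exon length. In the shortest class (42 to 2292 bases) 11.4% fell and 2.90% rose, and in the longest (7823 to 205012 bases) 3.19% fell and 12.7% rose. Of the 6 carriers that fell, SLC25A1 (2096 bases) is in the shortest class and SLC25A10 (2621), SLC25A11 (2669), SLC25A39 (3526) and SLC25A32 (3654) are in the second, where 11.6% of all genes fell. SLC25A36, at 10305 bases, is in the longest class. The carriers that rose, SLC25A44 (7293 bases) and SLC25A45 (7855 bases), are in the fourth and the longest class. With each library's trend with length removed, 5 carriers fell (SLC25A11, SLC25A30, SLC25A32, SLC25A36 and SLC25A39) and 0 rose.

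The first siC1QBP library also stood apart in the carriers, with a median absolute log2 distance of 0.140 to the rest of its group, against 0.0606 to 0.0862 in the other 5 libraries. Without it, 5 carriers fell (SLC25A1, SLC25A11, SLC25A22, SLC25A36 and SLC25A39) and SLC25A45 rose. SLC25A11 (log2 fold change -0.38 to -0.27) and SLC25A39 (-0.33 to -0.23) are the 2 carriers whose call stood in each of the 18 alternatives run. Scaling by library size only, upper-quartile scaling or a minimum of 10 CPM also ended the calls of SLC25A1 (adjusted p 0.0901, 0.0961 and 0.0652) and SLC25A10 (0.0755, 0.0651 and 0.0677), and a test of protein-coding genes only that of SLC25A10 (0.0504). That of SLC25A45 ended with genes of at least 1 count (0.0511) and without mitochondrially encoded genes (0.0503). The other 6 called carriers kept their sign in each alternative that gave a value.

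**Figure D4:**
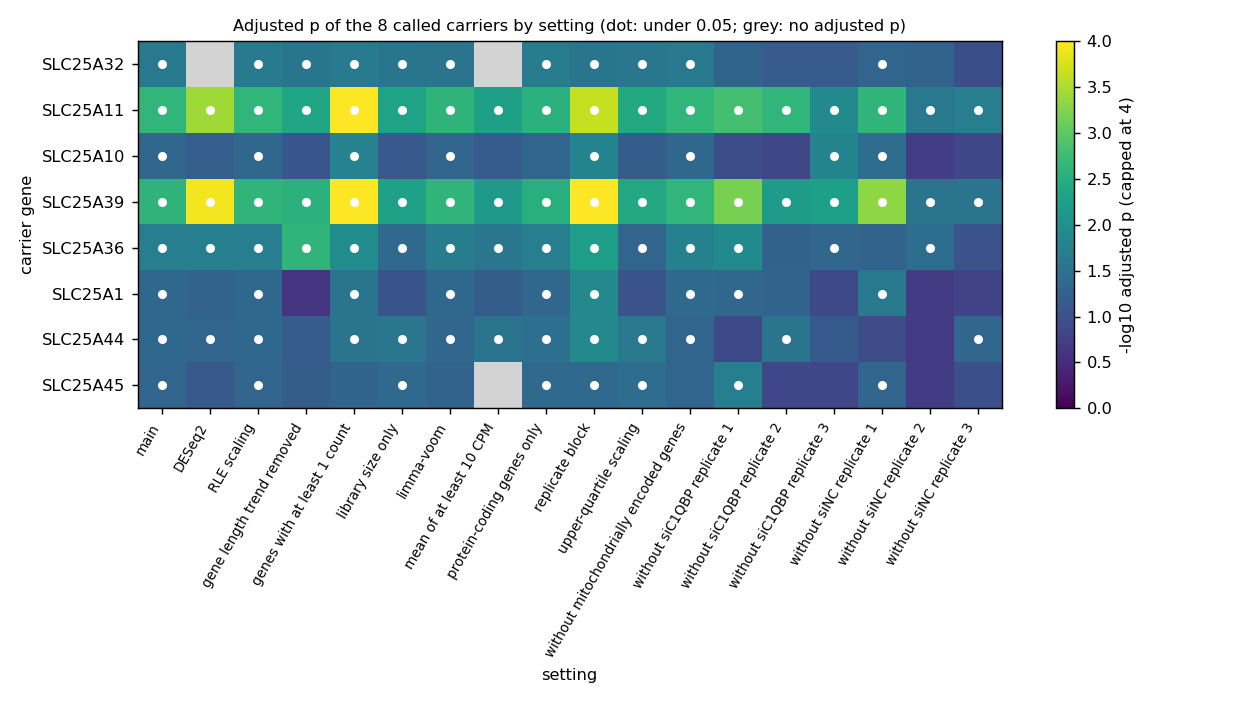
Adjusted p of the 8 called carriers (rows) in the reported fit and under each alternative (columns), as −log10 on the colour scale, with a dot where it is under 0.05 and grey where none was given. The rows of SLC25A11 and SLC25A39 have a dot in every column, and the other 6 rows have gaps, among them under DESeq2, other scalings and single libraries left out.

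Genes that work with the carriers were followed in 56 genes, of which 53 were tested: 6 fell, 3 rose, and the median log2 fold change was -0.07. The 9 calls are 16.98% of those tested, close to the 14.3% of all tested genes. Leaving out CPT1B, which passed the filter only through siC1QBP, 8 of 52 (15.4%) were called, 6 lower and 2 higher. The import route of the carriers held 4 of them. The route is the TIM22 complex, its small TIM chaperones and the receptor TOMM70. All 10 of its tested genes had negative log2 fold changes, with a median of -0.19, and 4 fell. Over all tested genes 49.4% were negative, 7.84% fell and the median was 0.003.

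TIMM13, a small TIM chaperone of the space between the membranes, had 59.7, 72.0 and 73.5 CPM in siC1QBP, against 81.1, 99.3 and 91.2 CPM in siNC (log2 fold change -0.41, SE 0.08, adjusted p = 0.00254). TIMM10, which with TIMM9 guards carriers on their way, had 45.3, 56.9 and 56.6 CPM in siC1QBP, against 58.8, 63.1 and 70.4 CPM in siNC (-0.28, SE 0.08, adjusted p = 0.0333). TIMM8B, a partner of TIMM13, had 42.3, 67.1 and 64.5 CPM in siC1QBP, against 68.9, 75.7 and 79.1 CPM in siNC (-0.36, SE 0.11, adjusted p = 0.0426). TIMM29, a subunit of the TIM22 complex, had 17.8 to 20.5 CPM in siC1QBP, against 22.6 to 26.9 CPM in siNC (-0.33, SE 0.09, adjusted p = 0.0200). In all 4 every siC1QBP library lay below every siNC library, as in 6 of the 10 route genes and 16.6% of all tested genes. These 4 are named because they were called, so their lack of overlap is not further support. The first siC1QBP library was the lowest in all 4. TIMM13 kept its call in all 18 alternatives. TIMM10 lost it without the first siC1QBP library (log2 fold change -0.18, adjusted p = 0.0702) and without the second (0.0936) or the third (0.186) siNC library. TIMM8B lost it without the first (0.0520), the second (0.137) or the third (0.161) siNC library and under DESeq2 (0.267), and stood at -0.18 on the log2 scale without the first siC1QBP library. TIMM29 lost it without the second (0.128) or the third (0.0518) siNC library. Scaling by library size only, or a minimum of 10 CPM, also ended the calls of TIMM8B and TIMM10, and upper-quartile scaling that of TIMM8B. The exons of TIMM13 (1973 bases), TIMM10 (777), TIMM8B (1166) and TIMM29 (1863) are all in the length range of the shortest class. In that class 11.4% of all tested genes fell and the median log2 fold change was -0.04. With the length trend removed, all 4 kept their call in edgeR. The adjusted p was then 0.00243 for TIMM13, 0.0214 for TIMM10, 0.0412 for TIMM8B and 0.0482 for TIMM29.

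Of the outer-membrane pores, VDAC1, through which metabolites reach the carriers, was the 1 of 3 called. It had 343, 327 and 328 CPM in siC1QBP, against 368, 370 and 359 CPM in siNC (log2 fold change -0.14, SE 0.04, adjusted p = 0.0332). ABCB8, a subunit of the mitochondrial potassium channel, was the 1 of 14 other inner-membrane transporters called. It had 52.5, 53.5 and 53.5 CPM in siC1QBP, against 46.9, 45.4 and 45.8 CPM in siNC (0.21, SE 0.06, adjusted p = 0.0204). Of the 14, 5 had an unadjusted p under 0.05 in edgeR, so a missing call does not show that a transporter was unchanged. Among 8 enzymes of the malate-aspartate shuttle and citrate export, 4 had an unadjusted p under 0.05 in edgeR, but only ME1 was called. ME1 turns cytosolic malate to pyruvate and makes NADPH. It had 27.8, 25.2 and 26.1 CPM in siC1QBP, against 22.3, 20.5 and 21.1 CPM in siNC (0.31, SE 0.08, adjusted p = 0.0130). ME1 thus rose while the malate carriers SLC25A10 and SLC25A11 fell in the reported fit. Whether these changes are linked was not tested.

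ALDH18A1, which makes the precursor of proline and ornithine from glutamate, was the 1 of 4 tested enzymes of its list that was called. It had 85.0, 76.4 and 72.5 CPM in siC1QBP, against 92.4, 89.6 and 91.4 CPM in siNC (log2 fold change -0.23, SE 0.06, adjusted p = 0.0162). CPT1B, the muscle form of the carnitine palmitoyltransferase, passed the filter only through siC1QBP and had 18, 14 and 13 counts in siC1QBP, against 5, 4 and 6 counts in siNC (1.62, SE 0.45, adjusted p = 0.0230). Each of these 5 calls, VDAC1, ABCB8, ME1, ALDH18A1 and CPT1B, was lost without the second or without the third siNC library, with an adjusted p up to 0.138 for VDAC1, 0.0934 for ABCB8, 0.0764 for ME1, 0.0862 for ALDH18A1 and 0.110 for CPT1B over all libraries left out. VDAC1, ABCB8 and ALDH18A1 were also lost without the second or the third siC1QBP library, CPT1B without the first or the second, and VDAC1 and CPT1B without the first siNC library. With the length trend removed the adjusted p was 0.141 for VDAC1 and 0.0569 for ABCB8. VDAC1 was also lost under scaling by library size only (0.0648) and upper-quartile scaling (0.0904), and ABCB8 with genes of at least 1 count (0.0566). The share called by edgeR over all tested genes was 14.3%. In edgeR 0 of 6 tested iron genes and 0 of 4 tested relatives under other symbols were called, near that share for lists this small. In each list 1 had an unadjusted p under 0.05, and DESeq2 and limma-voom called 0. The most abundant per kilobase of each were the haem synthesis enzyme ALAS1 (log2 fold change 0.11, SE 0.06, adjusted p = 0.261) and the outer-membrane relative MTCH1 (-0.11, SE 0.05, adjusted p = 0.168).

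**Figure D5:**
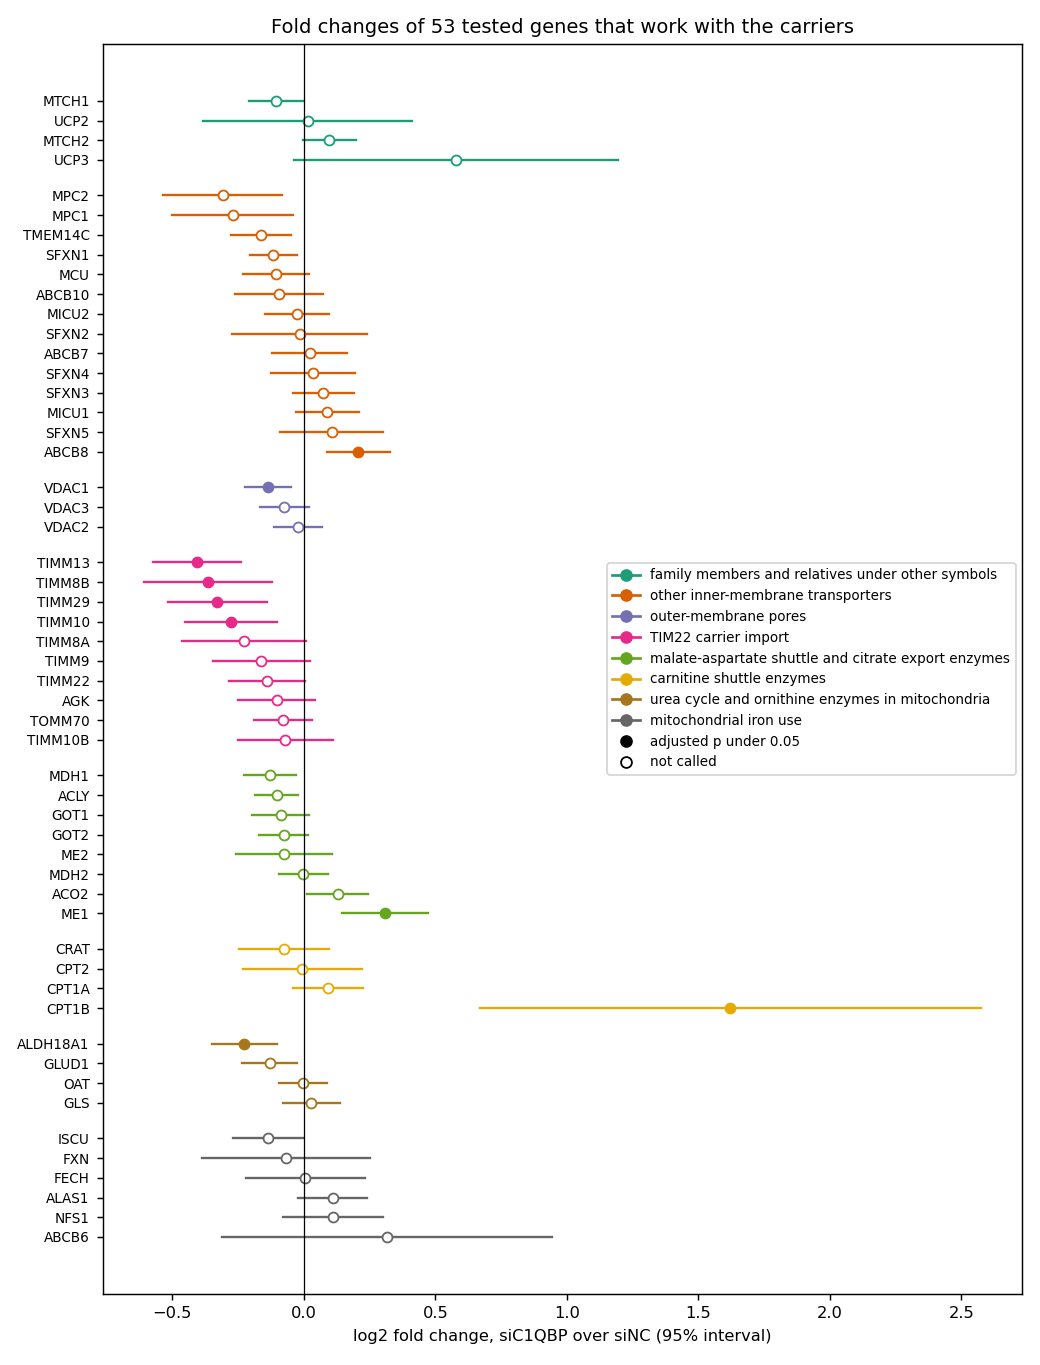
Log2 fold change, siC1QBP over siNC, of the tested genes that work with the carriers, by list, with called genes filled. The 10 genes of the TIM22 import route all lie below 0, from -0.41 to -0.07.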

How the data were processed

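RNA was sequenced from 3 siC1QBP and 3 siNC libraries of HuCCT1 cells, made with a strand-marking kit per the labels' protocols. The authors deposited raw counts per gene with no normalization, from reads on hg38 per the submitters' processing notes; which aligner, counter and strand setting made them is not given in the sources used here. IDs, coordinates and exon lengths of all 48 carriers matched GENCODE release 29.

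Counts were tested with edgeR 4.0.16 (R 4.3.3; quasi-likelihood, TMM scaling, filterByExpr, treatment only, two-sided), with Benjamini-Hochberg adjustment over 15530 genes and calls at an adjusted p under 0.05. CPM use TMM-scaled library sizes, and 95% intervals use the fit's t distribution. The smallest exact permutation p for 3 against 3 is 0.1, so single values were not tested that way. The fit was tested on simulated data.

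Members, lists and tests were chosen with earlier results of these data known. The rule for named genes takes C1QBP, every called carrier, the 2 carriers of each class with the highest level per kilobase, carriers below the filter by name, and in each partner list the called genes or else the highest; the remaining carriers are named to account for the members, except 1 tested carrier that was not called and is not reported here. Alternatives were DESeq2 1.42.0, limma-voom 3.58.1, other scalings, filters and gene sets, a replicate block, removal of the length trend, a stricter threshold and each library left out. Figures used matplotlib 3.10.9.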

Additional observations from a re-analysis of the deposited data

How the results depend on the processing

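The number of carriers called, 8, was 4 under DESeq2, 5 with the length trend removed (SLC25A30, not one of the 8, among them), 4 among genes averaging 10 CPM or more, 2 at an adjusted p under 0.01, and 3 to 6 with one library left out (6 without the first siC1QBP library, SLC25A22 among them, 4 without the second, SLC25A4 among them, and 3 without the second or the third siNC library). Lower calls, 6, were 3 under DESeq2, 3 at 10 CPM, 2 at 0.01 and 2 to 5 with one library left out. Higher calls, 2, were 1 under DESeq2, with genes of at least 1 count, under limma-voom, at 10 CPM and without mitochondrially encoded genes, 0 with the length trend removed and at 0.01, and 0 to 1 with one library left out. Dicarboxylate and citrate carriers, 3, were 1 under DESeq2, the length trend, library size only, 10 CPM, upper-quartile scaling and 0.01, and 1 to 3 with one library left out. Cofactor carriers, 3, were 1 at 0.01 and 1 to 2 with one library left out. Amino acid carriers, 1, were 0 with the length trend removed and at 0.01, and 0 to 1 with one library left out. The orphan class, 1, was 0 under DESeq2, genes of at least 1 count, limma-voom, 10 CPM, no mitochondrially encoded genes and 0.01, and 0 to 1 with one library left out. ADP/ATP and phosphate carriers, 0, were 0 to 1 with one library left out. Partner genes, 9, were 1 at 0.01 and 1 to 12 with one library left out, 1 without the second or the third siNC library. The median, -0.07, was -0.0410 by library size only, -0.0461 at 10 CPM and -0.0390 by upper-quartile scaling, and -0.0959 to -0.0512 with one library left out. The median over all tested genes was 0.0277 by library size only and 0.0296 by upper-quartile scaling, against 0.00255 in the reported fit. It thus rose with that of the carriers under these scalings. At 10 CPM it was -0.00221. The share called over all tested genes moved too. It was 14.31% in the reported fit, 12.44% under DESeq2, 14.11% with the length trend removed and 20.77% at 10 CPM. At 10 CPM only 31 carriers were tested. With one library left out the share was 6.93% to 16.19%. The 2222 calls over all genes were 1105 (6.93%) without the second siNC library and 1178 (7.37%) without the third. The cause of these moves was not tested.

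Of the 8 uncalled carriers followed one by one (SLC25A5, SLC25A6, SLC25A22, SLC25A28, SLC25A37, SLC25A38, SLC25A43 and SLC25A46), the sign of 3 turned in some alternatives. The signs of the other uncalled carriers were not followed. SLC25A38 was 0.0221 with the length trend removed, and -0.0886 to 0.0169 with one library left out (0.0169 without the second siNC library). SLC25A5 was -0.00796 with genes of at least 1 count, and -0.0141 to 0.0209 with one library left out (-0.0141 without the first siNC library). SLC25A6 was 0.0631 with the length trend removed, 0.0158 by library size only, 0.0120 at 10 CPM and 0.0175 by upper-quartile scaling. With one library left out it was -0.0603 to 0.0132, positive without the first siC1QBP library (0.00606), the second (0.00973) or the third (0.0132) siNC library.

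Deviations of same-numbered libraries correlated weakly, at 0.0433, 0.0330 and -0.00941, against -0.0478 to 0.0213 for libraries of different numbers. Whether replicate numbers pair the libraries was not settled. With the replicate number as a block, 8 carriers, 15 partner genes and 3092 genes in all were called. These 3092 are 19.91% of all tested genes, against 14.31% in the reported fit.

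Below about 0.175 CPM, the level of 3 counts in the smallest library, a level cannot be told from 0 counts.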
